A study of Mus musculus with 2 samples.

Results

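The genes described here are 18 glycolytic enzymes and 14 genes of the hypoxia response, 32 in all, followed in regulatory T cells of the mouse colon. Members were taken by gene symbol from the deposited table of 55246 loci. The 32 symbols matched 33 rows, because Aldoa is listed under a second identifier that had 0 reads in both libraries. With at least 10 reads over both libraries as the minimum, all 32 genes could be compared, out of 17363 in the table. RNA sequencing was done on 2 libraries, 1 of wild type (WT) and 1 of Exon2KO regulatory T cells (Treg cells), both from the colon lamina propria of female mice. Exon2KO, which the series text also writes as Foxp3∆2, names an allele lacking exon 2 of Foxp3, the transcription factor that Treg cells depend on. The labels give neither age nor strain, nor whether a library holds 1 mouse or a pool. With 1 library a genotype there is no replicate check: every interval below covers counting error only, and every difference is one between these 2 libraries.

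Glycolysis splits glucose into pyruvate, which lactate dehydrogenase can turn into lactate so that the pathway keeps running without mitochondria. Hypoxia-inducible factor 1 (HIF-1) links it to oxygen supply: prolyl hydroxylases mark HIF1A for destruction while oxygen is present, and when oxygen falls HIF1A pairs with ARNT and switches on glycolytic enzymes, angiogenic factors and the hydroxylases themselves. In T cells, antigen receptor and mTORC1 signals also raise HIF1A and glucose use, and the colon mucosa is a tissue of steep oxygen gradients.

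HIF-1 binds ACGTG or GCGTG. The windows of 4 genes are shown because Ldhb, Egln3 and Ddit4 were the members with a difference of at least 2-fold and Ldha was the most abundant member. Each holds the 250 bases before an annotated start in RefSeq (GRCm38.p6), written 5′ to 3′ on the strand of the gene, with ACGTG and GCGTG on either strand in capitals (CACGT and CACGC are the same letters read on the other strand). They lie at chr7:46845554-46845803 (Ldha, plus strand, the upstream one of its annotated starts), chr6:142507958-142508207 (Ldhb, minus strand), chr12:54203875-54204124 (Egln3, minus strand) and chr10:59951771-59952020 (Ddit4, minus strand).
Ldha: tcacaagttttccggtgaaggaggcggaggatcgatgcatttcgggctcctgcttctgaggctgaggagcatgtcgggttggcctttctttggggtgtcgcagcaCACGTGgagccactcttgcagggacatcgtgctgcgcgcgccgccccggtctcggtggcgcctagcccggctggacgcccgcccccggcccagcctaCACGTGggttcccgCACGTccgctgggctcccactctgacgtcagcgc
Ldhb: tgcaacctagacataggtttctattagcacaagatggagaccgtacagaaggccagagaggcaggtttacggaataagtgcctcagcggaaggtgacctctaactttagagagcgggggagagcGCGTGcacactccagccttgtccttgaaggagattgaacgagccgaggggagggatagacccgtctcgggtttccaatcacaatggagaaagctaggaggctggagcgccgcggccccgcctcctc
Egln3: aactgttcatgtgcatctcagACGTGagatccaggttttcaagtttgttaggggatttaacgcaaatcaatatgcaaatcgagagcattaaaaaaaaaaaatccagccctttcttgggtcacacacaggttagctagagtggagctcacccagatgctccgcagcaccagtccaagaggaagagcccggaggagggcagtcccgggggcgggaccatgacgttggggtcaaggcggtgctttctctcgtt
Ddit4: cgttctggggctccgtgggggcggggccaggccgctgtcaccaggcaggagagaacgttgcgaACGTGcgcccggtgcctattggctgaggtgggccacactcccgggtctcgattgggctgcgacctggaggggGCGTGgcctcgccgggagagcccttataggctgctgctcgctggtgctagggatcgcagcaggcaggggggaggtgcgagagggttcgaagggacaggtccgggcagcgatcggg
The Ldha stretch holds CACGTG at 2 places, a palindrome that counts as ACGTG on both strands. Counted back from the start, they begin at positions -145 and -48, and a further ACGTG on the other strand at -34. The bases after this start, like those of Egln3, were not found as an unbroken run in a GENCODE M21 transcript. The window of the other Ldha start, whose bases after the start were, holds no ACGTG, and GCGTG once in the 250 bases before that start, at -59. The single match of Ldhb is GCGTG at -126, and that of Egln3 is ACGTG at -229. Ddit4 has 1 of each, at -187 and -115. Windows of 300 bases, which reach 50 bases past the start, were matched for 31 of the 32 genes (Ero1l by its synonym Ero1a); Ndrg1 was not matched. Over their 45 windows, some of which overlap within a gene, 51.1% held ACGTG, against 19.6% of all 32851 windows, and 60.0% held GCGTG, against 32.4%. CACGTG was in 11.1% against 7.15%. The member windows had a median GC content of 61.3% and all windows 52.7%, and the part of this difference in the motif shares was not tested. At least 1 match to ACGTG or GCGTG was in 80% of the member windows, against 43.8% of all windows. By gene, 28 of the 31 had a match, but some have several windows, and no share by gene was computed over all genes. Among the 28 were Ankrd37 and P4ha1, neither of which differed between the libraries beyond counting error.

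Assigned reads came to 16281133 for WT and 15412425 for Exon2KO, and levels are given as CPM, counts scaled to a common library size (TMM). A gene with 0 reads could still make up 1.84e-05% of WT and 1.95e-05% of Exon2KO reads. Foxp3 itself had 6991 and 20946 reads. A count over the whole gene does not test for the loss of 1 exon. All 6 Treg and T cell markers were present in both, summing to 6994 and 10901 CPM, but they did not move together. Cd3e (328 and 329 CPM) and Cd4 (293 and 336) were within 1.5-fold, as were Trac (684 and 504) and Il2ra (189 and 148), which were lower in Exon2KO. Foxp3 (445 and 1311) was higher past 2-fold and Ctla4 (5055 and 8273) past 1.5-fold. The part of T cell content in the results was not tested. Plasma cell, B cell and epithelial transcripts were also present, and their levels are given beside the genes they bear on. In bulk RNA, fewer cells of a type and less RNA per cell cannot be told apart.

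The glycolytic enzymes differed little between the libraries, with 1 exception. Of the 18, only Ldhb was called, that is, past 2-fold with an adjusted p below 0.05 in the exact binomial test of reads between the 2 libraries; it was lower in Exon2KO. None was called higher. The background of this rule was 14.1% of all genes called in either direction, 7.32% higher and 6.81% lower. At 1.5-fold with the same test, 2 enzymes were lower (Ldhb and Hk1) and 0 higher, against 10.9% and 10.8% of all genes. Of the 18, 16 lay within 1.5-fold, against 67.9%, a share that includes genes with as few as 10 reads. The median log2 ratio of the enzymes, Exon2KO over WT, was -0.15, against 0.0045 over all genes tested.

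**Figure D1:**
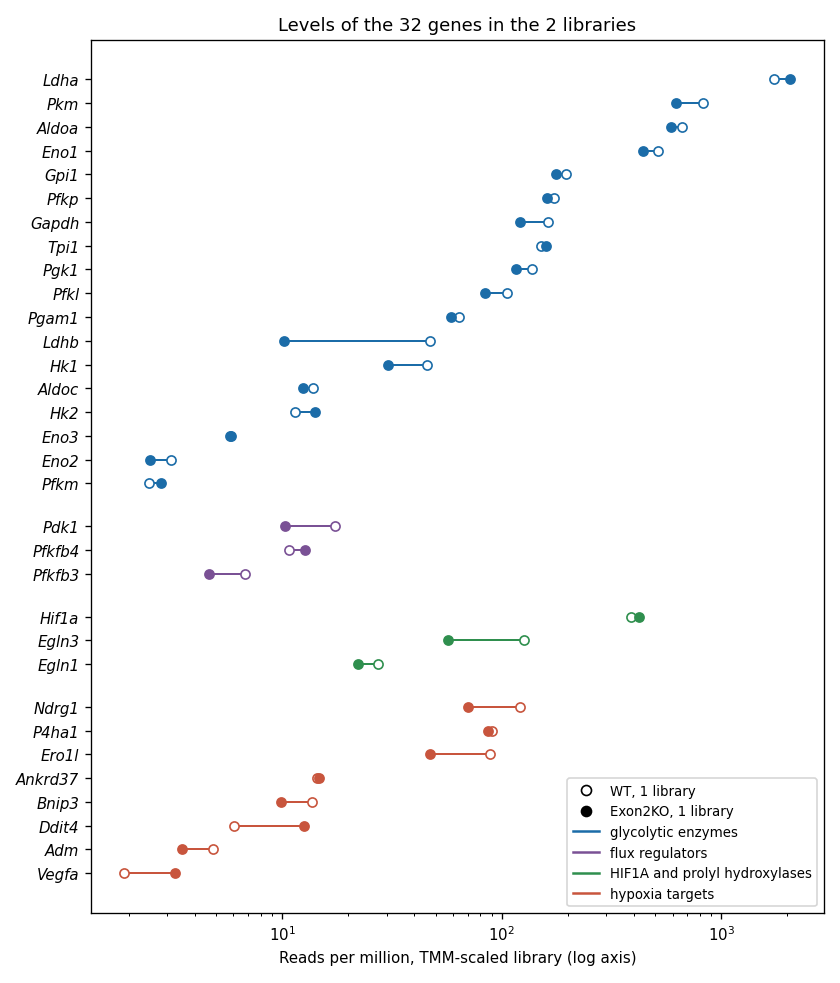
Levels of the 32 genes in TMM-scaled CPM on a log axis, with WT as open and Exon2KO as filled circles (1 library each), coloured by role. Enzyme pairs lie close together except for Ldhb, at 47.0 in WT and 10.2 in Exon2KO.

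Most small differences pointed the same way. The log2 ratio was below 0 for 13 of the 18 enzymes, against 49.6% of all genes. For 11 the interval of counting error lay wholly below 0, against 24.5%. Deep genes have narrow intervals, and most enzymes were deep, while the all-gene shares include genes with as few as 10 reads. The interval shares are therefore not like for like. The interval lay wholly above 0 for 2, Ldha and Hk2, against 22.9%. These intervals are not adjusted for the number of genes. Neither Hk2 nor Pgam1, one of the 11 below 0, passed the adjusted threshold of the exact binomial test. The count of 11 depends on the scaling. With total reads alone, which moved the median of all genes up by 0.104, 13 enzymes were still below 0. The interval was then below 0 for 8, against 18.6% of all genes, and the enzyme median was -0.05. Together the 18 enzymes made up 0.468% of the WT library (0.465 to 0.472, Wilson 95% interval) and 0.485% of the Exon2KO library (0.481 to 0.488). Without Ldha, the most abundant of them, the shares were 0.300% (0.298 to 0.303) and 0.270% (0.268 to 0.273). On the TMM scale the 18 summed to 4856 CPM in WT and 4675 in Exon2KO, so which library was higher depended on the scaling as well as on Ldha.

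The steps are given in pathway order. Hexokinase, which traps glucose in the cell as glucose-6-phosphate, is encoded here by Hk1 and Hk2. Hk1 counts were 720 (WT) and 485 (Exon2KO), which gave a log2 ratio of -0.59 (95% interval -0.76 to -0.43), and was lower past 1.5-fold. The ratio was -0.49 with total reads and -0.56 with upper quartile scaling, both short of 1.5-fold. Hk2, the inducible form, had 179 and 225 reads, at 0.30 (0.01 to 0.60). Hk3, a myeloid form, had 0 reads in both libraries. Gpi1, the isomerase that makes fructose-6-phosphate, was at 196 CPM in WT and 177 in Exon2KO (-0.15, -0.22 to -0.07).

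Phosphofructokinase commits sugar to glycolysis, and its liver, platelet and muscle subunits are encoded by Pfkl, Pfkp and Pfkm. Pfkl had 105 and 83.7 CPM, a log2 ratio of -0.33 (-0.44 to -0.23). Pfkp had 173 and 161 CPM, at -0.10 (-0.18 to -0.03). Pfkm, with 39 and 45 reads, was too shallow to show a difference (0.17, -0.47 to 0.84). Aldolase splits the 6-carbon sugar, and nearly all of its reads came from Aldoa, with 661 and 591 CPM (-0.16, -0.20 to -0.12), while Aldoc had 13.8 and 12.4 CPM (-0.15, -0.44 to 0.13). Triosephosphate isomerase, Tpi1, was at 152 and 159 CPM (0.07, -0.0091 to 0.15), so its counting interval included 0.

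In the later steps of the pathway, where ATP and NADH are made, every single-gene step had fewer scaled reads in Exon2KO, none of them past 1.5-fold. Gapdh, which makes NADH, had 2550 and 1931 reads, at 162 and 121 CPM and a log2 ratio of -0.43 (-0.51 to -0.34). Pgk1, the first ATP-making enzyme, had 137 and 117 CPM (-0.23, -0.32 to -0.14). Pgam1, the mutase, had 64.1 and 58.5 CPM (-0.13, -0.26 to -0.0029). Enolase reads came mainly from Eno1, at 513 and 438 CPM (-0.23, -0.27 to -0.18). Eno2 and Eno3, the neuronal and muscle forms, were far rarer. Eno2 had 49 and 40 reads (-0.30, -0.96 to 0.31) and Eno3 had 91 and 93 (0.0055, -0.43 to 0.44), too few to show a difference in either. Pkm, the pyruvate kinase and second ATP-making enzyme, had 12922 and 9969 reads, at 823 and 624 CPM (-0.40, -0.44 to -0.36).

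Lactate dehydrogenase, the last step, was where the libraries parted. Its subunits are LDHA, which favours making lactate from pyruvate, and LDHB, which favours the reverse. Ldha (ENSMUSG00000063229, chromosome 7, 46841475 to 46855627, GRCm38) had 27331 reads in WT and 33036 in Exon2KO, at 1741 and 2067 CPM. The log2 ratio was 0.25 (0.22 to 0.27), short of 1.5-fold. Ldhb (ENSMUSG00000030246, chromosome 6, 142490249 to 142507957) had 738 and 163 reads, at 47.0 and 10.2 CPM. It was 4.61-fold lower in Exon2KO, with a log2 ratio of -2.19 (-2.46 to -1.96). Ldha was thus the higher and Ldhb the lower gene of the pair in Exon2KO. In the authors' deposited table Ldhb is the only one of the 32 genes with an adjusted p-value below 0.05 (log2 fold change -2.20, adjusted p-value 5.76e-05), against 4.58% of the 22447 genes with a value there. The next of the 32 in the authors' deposited table are Egln3 (adjusted p-value 0.103) and Ddit4 (0.219).

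Summed over isozymes, 9 of 11 steps from hexokinase to lactate dehydrogenase had a log2 ratio with an interval wholly below 0, beside 24.5% of single genes. The lowest was -0.43, for glyceraldehyde-3-phosphate dehydrogenase, next to pyruvate kinase at -0.40. Hexokinase as a whole had 57.3 and 44.4 CPM (-0.37, -0.51 to -0.22), so the higher Hk2 count did not make up for the lower Hk1 count. Phosphofructokinase had 281 and 247 CPM (-0.18, -0.25 to -0.12), and enolase 522 and 447 (-0.22, -0.27 to -0.18). Triosephosphate isomerase spanned 0, and lactate dehydrogenase was above it, at 0.22 (0.19 to 0.24). With total reads, an alternative added after the data were seen, 7 steps stayed wholly below 0, glucose-6-phosphate isomerase and phosphoglycerate mutase spanned 0, and triosephosphate isomerase lay above it (0.18, 0.10 to 0.26).

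**Figure D2:**
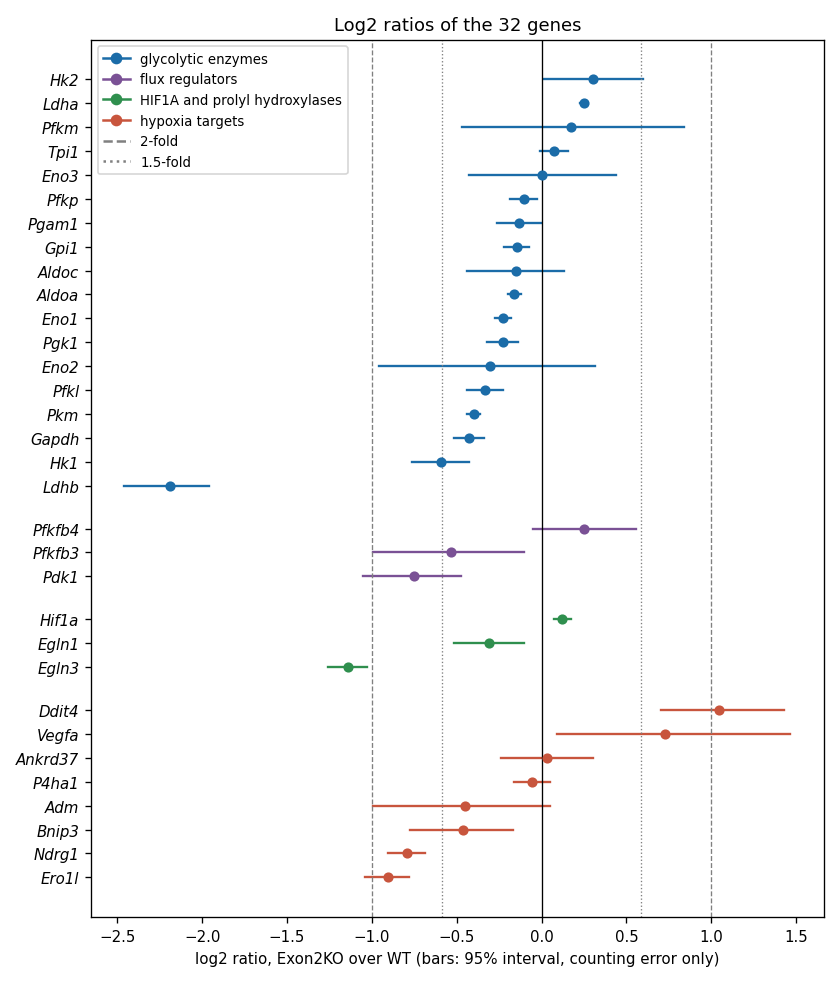
Log2 ratios of the 32 genes, Exon2KO over WT, with 95% intervals of counting error in 1 library each, dashed lines at 2-fold and dotted lines at 1.5-fold. Ldhb at -2.19 and Egln3 at -1.14 lie beyond the 2-fold line on the left and Ddit4 at 1.05 beyond it on the right.

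Levels of different genes can be set beside each other only per length, as in the deposited FPKM. On that scale Ldha was the highest of the 32 in WT (524 FPKM, rank 120 in the table), followed by Aldoa (226), Pkm (164) and Eno1 (94.9). In Exon2KO these were 627, 204, 125 and 81.9 FPKM. The Ldha level per length was 17.6 times that of Ldhb in WT and 96.1 times in Exon2KO. Ldhb thus made up 5.39% of lactate dehydrogenase FPKM in WT and 1.03% in Exon2KO. Hk1 took 73.8% of hexokinase FPKM in WT and 60.1% in Exon2KO, with Hk2 as the rest. Pfkl and Pfkp were nearly balanced, at 53.6% and 43.8% in WT and 49.4% and 47.3% in Exon2KO. Aldoa (98.2% in both) and Eno1 (96.0% and 95.5%) dominated their families alike in both libraries.

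**Figure D3:**
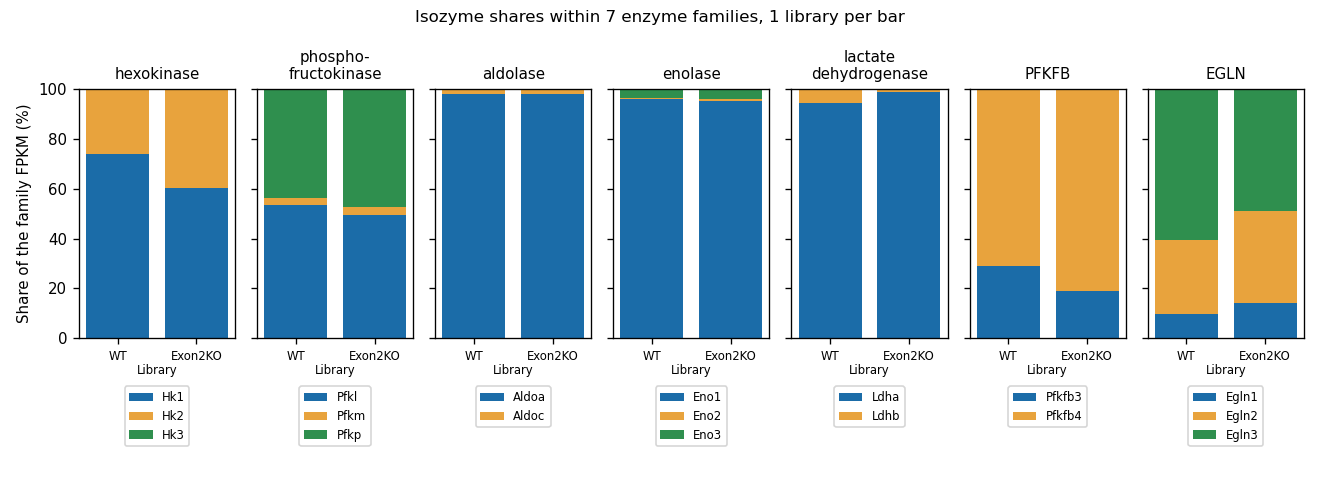
Share of each isozyme in the deposited FPKM of its family, in percent, with 1 library per bar. The Ldhb band shrinks from 5.39% to 1.03% and the Hk1 band from 73.8% to 60.1% between WT and Exon2KO, while aldolase and enolase keep their make-up.

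Several of these genes have near-identical copies, so their counts are uncertain. Of all 100-base stretches in the GENCODE M21 transcripts of Pgk1, 51.7% also occur in transcripts of another gene, mostly Pgk1-rs7. The share was 33.9% for Pgam1, 24.6% for Bnip3, 20.9% for Gapdh (spread over 86 other genes), 20.4% for Eno1, 12.3% for Pkm and 10.8% for Ankrd37. It was 6.44% for Ldhb, 0.590% for Ldha and 0 for Egln3 and Ddit4. The copies named as such in the table had few reads: Eno1b had 280 and 238, 5 Ldha copies had 108 and 114 and 5 Gapdh copies had 5 and 4. These 5 Gapdh copies are fewer than the 86 genes that share its stretches. Gapdh stood at 39.1 FPKM in WT and 29.4 in Exon2KO, over a deposited gene length of 4133 bases, and Ldha was 13.4 and 21.4 times higher per length. How far copies and length set these levels was not tested.

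Among the 14 hypoxia response genes the differences went both ways. At 2-fold, Egln3 was called lower and Ddit4 called higher, 2 of 14, a share close to the 14.1% of all genes called in either direction. At 1.5-fold, 4 were lower (Egln3, Ero1l, Ndrg1 and Pdk1) and 2 higher (Ddit4 and Vegfa). That is 6 of 14, beside 21.7% of all genes at 1.5-fold in either direction. The median log2 ratio was -0.38, and -0.28 with total reads. All 14 together made up 0.0884% of the WT library and 0.0806% of the Exon2KO library, so they held far fewer reads than the enzymes.

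Hif1a, the oxygen-regulated subunit of HIF-1, was among the more abundant members. It had 6083 reads in WT and 6746 in Exon2KO, at 387 and 422 CPM, and a log2 ratio of 0.12 (0.07 to 0.17). The 2 libraries were thus close in Hif1a mRNA, which does not report the protein, whose stability oxygen controls.

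The prolyl hydroxylases that act on HIF1A differed more. Egln3 (ENSMUSG00000035105, chromosome 12, 54178981 to 54203860, GRCm38) encodes PHD3, itself a HIF target. It had 1978 and 912 reads, at 126 and 57.1 CPM. The level was 2.21-fold lower in Exon2KO, with a log2 ratio of -1.14 (-1.26 to -1.03). Egln1, which encodes PHD2, the main oxygen sensor in most cells, had 430 and 353 reads (-0.31, -0.52 to -0.10). Egln2, from the list of HIF partners, had 1015 and 722 reads (-0.52, -0.66 to -0.38). All 3 were lower in Exon2KO, Egln3 the most. Egln3 accounted for 60.6% of EGLN FPKM in WT and 49.0% in Exon2KO.

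The flux regulators sit between glycolysis and HIF. Pdk1, a kinase that shuts off pyruvate entry into the citric acid cycle, had 273 and 164 reads and was lower past 1.5-fold, at -0.75 (-1.05 to -0.48). Pfkfb3 and Pfkfb4 make or remove fructose-2,6-bisphosphate, the activator of phosphofructokinase. Pfkfb3 had 106 and 74 reads (-0.53, -0.99 to -0.10). Pfkfb4 had 168 and 204 reads (0.25, -0.05 to 0.56). The pair thus leaned apart, and neither passed 1.5-fold. Pfkfb4 was the more abundant per length, with 71.1% of their summed FPKM in WT and 81.0% in Exon2KO.

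Of the 8 other hypoxia targets, Ddit4 had the highest ratio. Ddit4 (ENSMUSG00000020108, chromosome 10, 59949669 to 59951834, GRCm38) encodes REDD1, an inhibitor of mTORC1 that is also induced by glucocorticoids and stress. It had 95 reads in WT and 202 in Exon2KO, at 6.05 and 12.6 CPM, 2.09-fold higher with a log2 ratio of 1.05 (0.70 to 1.43). Vegfa, the angiogenic growth factor, had 30 and 52 reads, at 0.73 (0.09 to 1.47), and its adjusted p of 0.0483 in the exact binomial test was close to the threshold. Both genes had few reads, and the lower limit for Vegfa was close to 0.

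Ero1l, an oxidase that forms disulfide bonds in the endoplasmic reticulum, had 1385 and 751 reads, at 88.2 and 47.0 CPM (-0.91, -1.04 to -0.78). Ndrg1, a stress-induced gene of differentiation, had 1911 and 1121 reads, at 122 and 70.1 CPM (-0.79, -0.90 to -0.69). Both were lower past 1.5-fold, and both had ample reads in each library. Bnip3, a mitophagy receptor, had 215 and 158 reads (-0.47, -0.78 to -0.17). Adm, which encodes the vasodilator adrenomedullin, had 76 and 56 reads (-0.45, -0.99 to 0.05).

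The remaining targets showed no difference beyond counting error. P4ha1, a collagen prolyl 4-hydroxylase, had 1418 and 1389 reads (-0.06, -0.16 to 0.05). Its ratio was 0.05 with total reads, so its sign depends on the scaling. Ankrd37, a widely used hypoxia marker, had 226 and 235 reads (0.03, -0.24 to 0.30). The 8 listed targets did not share a direction: 2 were lower and 2 higher at 1.5-fold, beside 10.9% and 10.8% of all genes. The other 4 lay within it, beside 67.9%. The 2 higher, Ddit4 and Vegfa, had few reads, and the 8 leave out Egln3, a HIF target called lower. Over all 14 hypoxia response genes the interval lay wholly below 0 for 7 and wholly above 0 for 3. Over all genes from 10 reads up these shares were 24.5% and 22.9%.

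**Figure D4:**
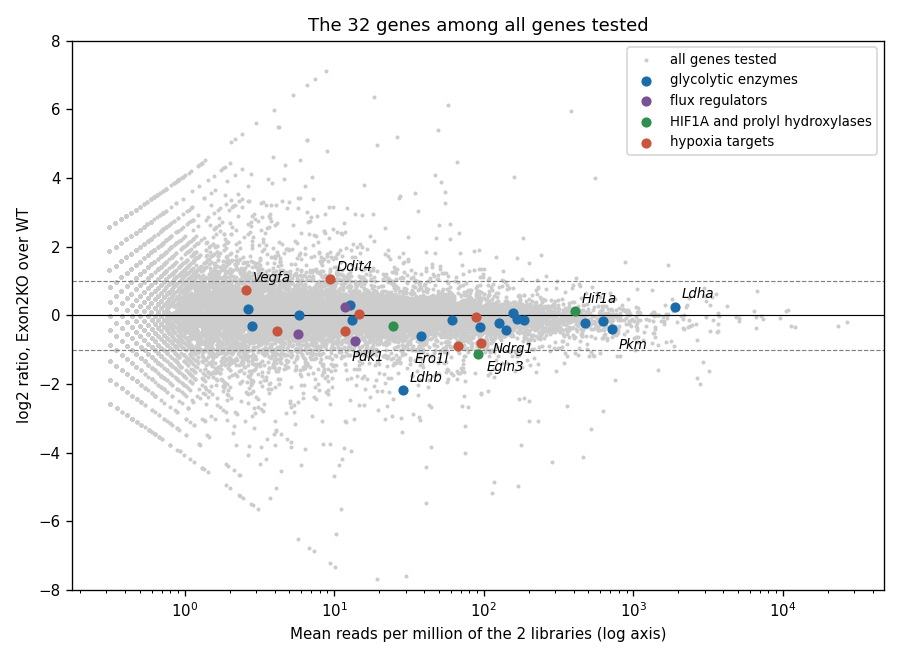
Log2 ratio, Exon2KO over WT, against the mean CPM of the 2 libraries (log axis), with all genes tested in grey and the 32 genes coloured by role; dashed lines mark 2-fold and 3 genes lie beyond the axis. The abundant enzymes sit near 0 and Ldhb at -2.19 lies apart from them.

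Neighbouring parts of the pathway were read from lists chosen with earlier results known. In glucose and lactate transport all 7 tested genes had a log2 ratio below 0, with 2 called lower, 0 higher and a median of -0.53. Over all genes 6.81% were called lower and 49.6% lay below 0. Slc16a3, the lactate exporter MCT4 and a HIF target, had 858 and 316 reads (-1.46, -1.66 to -1.28). Slc2a6, which encodes the transporter GLUT6, had 299 and 83 reads (-1.85, -2.24 to -1.52). The main glucose transporters of T cells, Slc2a1 (1029 and 708 reads, -0.56, -0.71 to -0.43) and Slc2a3 (665 and 469 reads, -0.53, -0.70 to -0.36), did not reach 1.5-fold. Bsg, the chaperone of lactate transporters, was at -0.11 and Slc16a1 (MCT1) at -0.42.

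The routes that branch from glycolysis were read from short lists. Over all genes 14.1% were called at 2-fold and 21.7% passed 1.5-fold with the same test, in either direction. Lists of 5 to 11 tested genes are too short to be set apart from these shares. None of the 7 pentose phosphate genes was called, beside 14.1% of all genes, and their median was -0.14. The genes with the most reads, Taldo1 and Tkt, were at -0.07 and -0.29. Among 11 tested genes of pyruvate entry into mitochondria 0 were called, beside 14.1% of all genes, and their median was -0.07. Pdhb, a subunit of pyruvate dehydrogenase, had 3539 and 3541 reads, and Dld 1498 and 1455. Pdp1, a phosphatase that reactivates pyruvate dehydrogenase, was the only one of the 11 past 1.5-fold, and lower (652 and 437 reads, -0.60, -0.78 to -0.43). Of the further isozymes and side enzymes, Bpgm and Adpgk had the most reads and were at -0.46 and -0.22. Galm, an aldose mutarotase, was higher past 1.5-fold (221 and 401 reads, 0.83, 0.59 to 1.08). Of 5 gluconeogenic genes only Fbp2 was called, beside 14.1% of all genes in either direction. G6pc3 and Pck2, which had the most reads, were at -0.03 and -0.19. Pck1 (2 and 9 reads, 1.44, -0.13 to 5.39) and Pcx (21 and 12 reads, -0.74, -1.99 to 0.26) had few reads, and both intervals included 0.

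Fbp2, a fructose bisphosphatase, was called higher, with 5 reads in WT and 62 in Exon2KO (3.17, 2.31 to 5.28). Epithelial markers moved with it: 7 of 9 were called higher, against 7.32% of all genes. Their summed level was 91.4 CPM in WT and 454 in Exon2KO, with none at 0. Krt8 was at 10.2 and 100.4 and Epcam at 49.8 and 38.1. The part of epithelial RNA in Fbp2 and in the low-count members Vegfa, Adm and Ddit4 was not tested. Red blood cell and neutrophil markers were at or near 0 (Cxcr2 at 0 in both, summed levels of 0.446 and 2.50 CPM, and of 0.127 and 0.375). Muscle markers, which bear on Eno3 and Pfkm, summed to 2.68 and 3.07 CPM, and neuronal and glial ones, which bear on Eno2, to 2.29 and 3.75. Myeloid markers summed to 29.0 and 33.8 CPM, with Itgax at 0 in both, stromal ones to 63.6 and 57.7, and B and plasma cell ones to 7770 and 7256, nearly all of it Jchain. None of these 3 sums differed by as much as the epithelial one.

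In the HIF list, Epas1, which encodes HIF-2α, was the only one of 11 tested genes called, beside 14.1% of all genes. It had 1056 reads in WT and 290 in Exon2KO, at 67.3 and 18.1 CPM and a log2 ratio of -1.88 (-2.08 to -1.70). Hif1a and Epas1 thus differed in direction. Arnt, the partner of both, was at 0.20 and Vhl, which targets hydroxylated HIF for destruction, at 0.02. Rbx1 and Elob, subunits of the same ubiquitin ligase and the genes of the list with the most reads, were at 0.44 and 0.09.

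Among 29 hypoxia targets outside the members and with enough reads, 2 were called higher and 0 lower, with a median of -0.05. The share called higher is close to the 7.32% of all genes. Slc2a1 and Pgm1 are counted here and also in the transport and side enzyme lists. The 2 were Lox (0 and 12 reads, at least 3.93-fold higher against 3 reads in WT) and Stc1 (6 and 20 reads), both rare. The most reads came from Bhlhe40 (23502 and 23831 reads, -0.0057) and Rora (19059 and 10568 reads, -0.88), a nuclear receptor with roles of its own in T cells. Rora was lower past 1.5-fold.

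Regulators of glycolytic gene expression included Myc, which drives glycolytic genes in activated T cells. Myc had 1631 and 460 reads, at 104 and 28.8 CPM, with a log2 ratio of -1.85 (95% interval -2.004 to -1.70), and was called lower. Arrdc4, a brake on glucose uptake, was called lower too (599 and 258 reads, -1.23, -1.46 to -1.03), while its relative Txnip was at -0.09. Past 1.5-fold but short of 2-fold, Sesn1, an inhibitor of mTORC1 activation, was lower (1570 and 810 reads, -0.98, -1.10 to -0.86). Irf4, a transcription factor of activated T cells, was higher (773 and 1432 reads, 0.86, 0.74 to 0.99). Rheb, the activator of mTORC1, was at -0.13. Myc and Arrdc4 were the only 2 called at 2-fold among the 17 tested genes of the list, a share near the 14.1% of all genes called in either direction. The list's median was 0.0092.

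**Figure D5:**
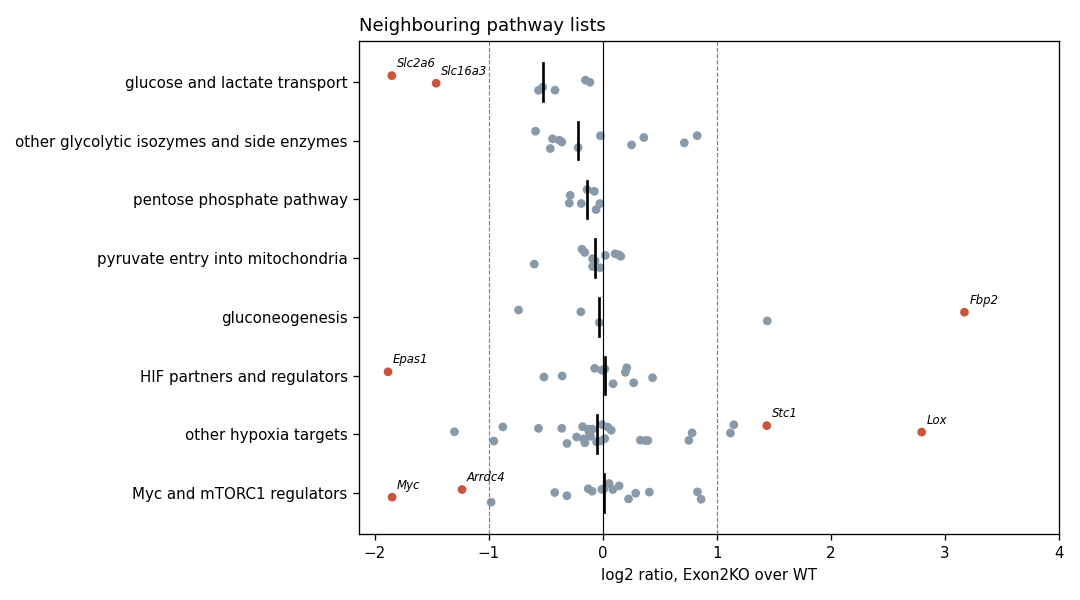
Log2 ratios of the tested genes reported here in 8 neighbouring pathway lists (points; vertical spread within a list has no meaning), with the median of the points as a bar, dashed lines at 2-fold and called genes named in red. Transport genes all lie below 0, and Lox, with 0 reads in WT, is placed by its fitted ratio, which depends on the prior count.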

How the data were processed

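Gene-level RNA-seq values of 1 WT and 1 Exon2KO library were used. Per the labels' protocols, RNA was column-purified and libraries were made with an NEBNext Ultra kit. The submitters' processing notes name HISAT2 2.0.5, StringTie 1.3.3b, featureCounts 1.5.0-p3, DESeq2 1.16.1 and mm10, without roles; strand use and annotation release are not given in the sources used here. The authors deposited raw counts, which entered every test, and FPKM, used for levels between genes. The log2 fold changes and p-values are the authors' deposited comparison, whose tool is not stated; their scaled count signal, also deposited, was not used.

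Library sizes were scaled by TMM (edgeR 4.0.16, R 4.3.3; factors 0.964 and 1.04). A quasi-likelihood test needs replicates, so genes with at least 10 reads were compared by 2-sided exact binomial tests with Benjamini-Hochberg adjustment over all 17363 genes. A gene was called at an adjusted p below 0.05 and 2-fold, or 1.5-fold where stated. Log2 ratios used a prior count of 2; intervals are 95% Clopper-Pearson, converted without it. Python 3.11.15, scipy 1.17.1 and statsmodels 0.14.6 were used, and the test was checked on simulated data. All members are named; of the neighbouring lists, every called gene, the 2 with most reads and a few preset genes (Slc2a1, Slc2a3, Slc16a3, Myc, Foxp3) are named, others having been chosen after their values were seen; 1 gene is not reported here. Members and lists were chosen with earlier results of these data known. Other scalings (DESeq2 1.42.0 size factors, total counts, upper quartile, TMM on fewer genes), read minimums, prior counts and assumed spreads were tried.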

Additional observations from a re-analysis of the deposited data

How the results depend on the processing

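Of 320 recomputed ratios of the 32 genes over 10 alternatives, 314 kept both direction and 2-fold call. Much of this was fixed in advance. The read minimums and assumed spreads leave each ratio as it is, so no direction could change there. Only Ldhb, Egln3 and Ddit4 had a call to lose. P4ha1 changed sign with total counts (0.0492). The other 5 lost a call only to an assumed spread between samples, which 1 library a group cannot measure: with an assumed coefficient of variation of 0.2 in edgeR's exact test Ldhb kept its call and Egln3 and Ddit4 lost theirs, and with 0.4 Ldhb lost its call too. Over all genes, a spread of 0.2 left 579 higher and 536 lower and 0.4 left 86 and 78, against 1271 and 1183, and a minimum of 50 reads left 650 and 685, because fewer genes were tested. Enzymes lower at 2-fold went from 1 to 0 with 0.4. Enzymes lower at 1.5-fold went from 2 to 1 (without Hk1) with total counts, upper quartile scaling or a spread of 0.2, and to 0 with 0.4. Hypoxia response genes went from 1 higher and 1 lower at 2-fold, and 2 higher and 4 lower at 1.5-fold, to 0 with either spread, and to 1 higher at 1.5-fold without a read minimum, as more genes entered the adjustment. Without immunoglobulin, mitochondrial and haemoglobin genes in the total, enzymes held 0.505% of WT and 0.523% of Exon2KO reads. The steps with an interval below 0 numbered 7 to 9 over the scalings. Depth limits Vegfa, Pfkm, Eno2, Eno3 and Adm. No paired analysis was possible because WT and Exon2KO have 1 library each, and none could be left out.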

Other observations

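Hilpda, a lipid droplet protein induced by hypoxia that is in none of the lists and was chosen after its values were seen, had more reads than any of the 14 hypoxia response genes, 12062 in WT and 11235 in Exon2KO. The log2 ratio of -0.13 (-0.17 to -0.09) lay well within 1.5-fold. Khk, the ketohexokinase that admits fructose to the pathway, had 171 and 93 reads (-0.89, -1.28 to -0.53), also chosen after its values were seen.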
